A study of Mus musculus with 2 samples.

Results

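The serpin family of protease inhibitors was described in mouse calvarial osteoblast cultures at 2 times of differentiation. Its members here were the 54 probe sets, of 45101 on the array, whose only gene symbol starts with Serpin, leaving out Serpinh1. They stood for 39 of 18193 named genes and covered clades a, b, c, d, f, g and i. Clades e and h were not analysed here. The later sample was 1 culture of CD11b-negative cells, differentiated for 12 days with 50 µg/ml ascorbic acid and 10 mM β-glycerophosphate, and the earlier sample was 1 such culture at 5 days in the same medium. The cells of both came from the skull roofs of newborn mice and had been depleted of cells that carry CD11b, a myeloid surface protein. The labels name no strain, genotype or sex, and do not say how many animals were pooled. With 1 array per day there was no replicate error and no test, so every difference below compares these 2 arrays.

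A serpin is a folded protein with an exposed loop that a protease takes for a substrate. When the protease cuts the loop, the serpin snaps into a more stable shape, drags the enzyme along and holds it inactive, so each molecule works only once. Clades a, c, d, e, f, g and i are mainly secreted and control clotting, complement and matrix proteases, while clade b serpins lack a classical signal peptide and mostly protect cells from their own proteases or from those of leukocytes. A few members no longer inhibit proteases. Serpinf1 (pigment epithelium-derived factor) is one of these, and its loss in humans causes a form of osteogenesis imperfecta in which bone mineralises poorly.

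The genes that differed by at least 2-fold at day 12 were all of clade b, 3 of them in a cluster on chromosome 13 that were lower and 1 on chromosome 1 that was higher. Clade b also held 8 of the 11 serpin genes measured (defined below), 6 of them on chromosome 13. Of all measured genes, 1.73% were at least 2-fold lower and 3.56% at least 2-fold higher. Serpinb2 and Serpina3n were measured at day 5 alone, so their ratios were bounds that could only be lower at day 12. Both bounds were under 2-fold. The genes passed it only under 2 other ways of treating low signals, which lower the floor or replace it with an added constant. The promoters of Serpinb9 and Serpinb9b, neighbouring genes that were lower by nearly the same fold, are shown first, followed by that of Serpinb8, the gene that was higher. Each line gives the 250 bases before the annotated start on the gene's own strand, from RefSeq on GRCm38.p6. In the first pair the capitals mark the exact runs of at least 10 bases that both promoters hold, and in Serpinb8 they mark a match to the AP-1 motif TGANTCA, where N is any base, that begins 23 bases before the start. The regions are chr13:33004291-33004540 for Serpinb9, chr13:33027164-33027413 for Serpinb9b and chr1:107589756-107590005 for Serpinb8, all on the plus strand.
Serpinb9: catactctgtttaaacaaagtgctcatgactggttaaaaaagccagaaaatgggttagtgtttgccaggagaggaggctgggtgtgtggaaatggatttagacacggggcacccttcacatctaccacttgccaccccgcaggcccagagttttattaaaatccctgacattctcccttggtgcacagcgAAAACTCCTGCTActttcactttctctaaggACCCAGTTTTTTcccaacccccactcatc
Serpinb9b: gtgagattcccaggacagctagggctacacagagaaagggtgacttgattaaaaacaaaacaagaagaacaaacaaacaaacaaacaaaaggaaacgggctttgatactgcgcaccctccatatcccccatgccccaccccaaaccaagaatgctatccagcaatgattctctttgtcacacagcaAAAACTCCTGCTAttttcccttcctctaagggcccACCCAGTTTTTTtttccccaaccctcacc
Serpinb8: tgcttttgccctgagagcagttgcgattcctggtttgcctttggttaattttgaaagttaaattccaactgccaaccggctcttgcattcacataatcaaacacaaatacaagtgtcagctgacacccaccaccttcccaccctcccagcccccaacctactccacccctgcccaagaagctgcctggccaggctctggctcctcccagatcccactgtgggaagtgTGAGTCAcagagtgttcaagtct

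The Serpinb9 and Serpinb9b promoters were 61.6% identical over 250 bases in a global alignment. The 11 promoters listed covered 9 of the measured serpin genes, and those of Serpinb1a and Serping1 were not listed. Among 55 pairs of the 11 promoters, identity had a median of 51.2%. The only pair above 61.6% was that of 2 overlapping Serpinb2 promoters, at 65.2%. The shared runs were 13 bases long, beginning 60 and 64 bases before the start, and 12 bases long, beginning 29 bases before the start in both. A match to GAAANNGAA, a part of interferon-response elements, was found on the minus strand 45 bases before the start of Serpinb9 and not in the Serpinb9b window. Of 32851 promoters of the same length, 7.13% held that motif and 6.75% held TGANTCA, each searched on both strands. Among the measured serpins with a listed promoter, TGANTCA was also found in Serpinb2. Its overlapping promoters hold the same match, 94 and 181 bases before their respective starts. GAAANNGAA was found in 1 of the Serpinb6a promoters, 83 bases before the start. These matches describe letters and are not binding sites.

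A probe set was counted as measured where its signal reached the floor of its array, set at the 60th percentile of all probe sets but the controls, which was 44.8 at day 12 and 46.6 at day 5. Of 39 serpin genes, 11 (28.2%) were measured on at least 1 array by the brightest probe set, against 57.6% of all named genes. Of these 11, 9 reached the floor on both arrays and 2 at day 5 alone. The 28 others lay below the floor on both arrays, where values have no order. By clade, 8 of 18 genes were measured in clade b, 1 of 14 in clade a, 1 of 2 in clade f and the single gene of clade g, and none in clades c, d and i.

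**Figure D1:**
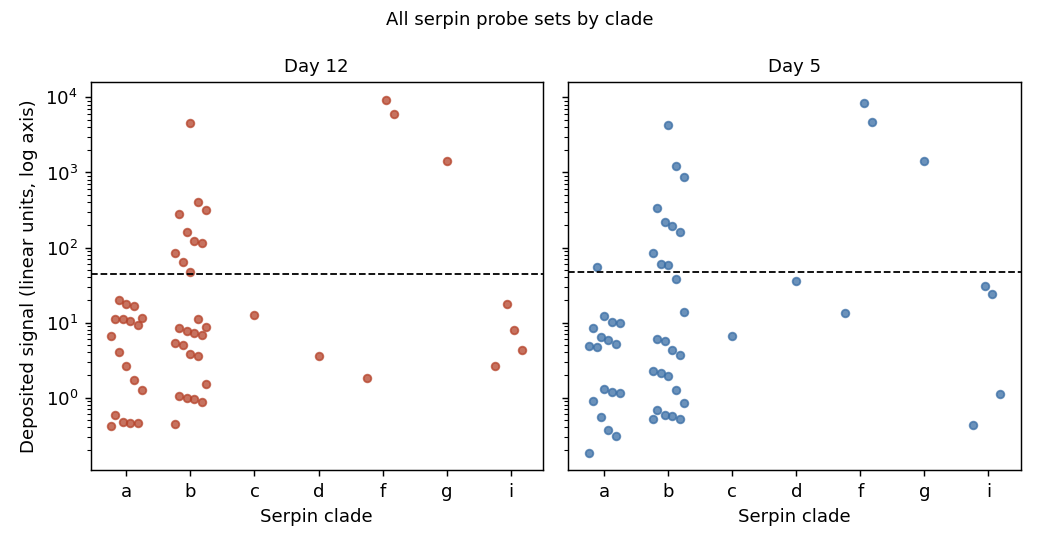
Deposited signal of all 54 serpin probe sets by clade, at day 12 (left) and day 5 (right), on a log axis, with 1 point per probe set and the array's floor as a dashed line. Clade b spreads over both sides of the floor, while in clade a every point lies below it at day 12 and 1 point lies above it at day 5.

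Of the 11 measured genes, 1 was at least 2-fold higher at day 12, against 3.56% of 10479 measured genes, and 3 were at least 2-fold lower, against 1.73%. The other 7 differed by less than 2-fold or had a bound under 2-fold. At 1.5-fold the counts were 1 higher and 4 lower, beside 7.25% and 7.7% of all measured genes, and at 3-fold they were 0 and 1, beside 1.67% and 0.344%. All 4 genes past 2-fold belonged to clade b, which held 8 of the 11 measured genes. The median log2 ratio of day 12 over day 5 was 0.005 over the 11 genes and -0.05 over all measured genes. With a floor at the 50th percentile, or with 16 added to each signal in place of a floor, 5 genes were at least 2-fold lower, since Serpinb2 and Serpina3n joined.

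**Figure D2:**
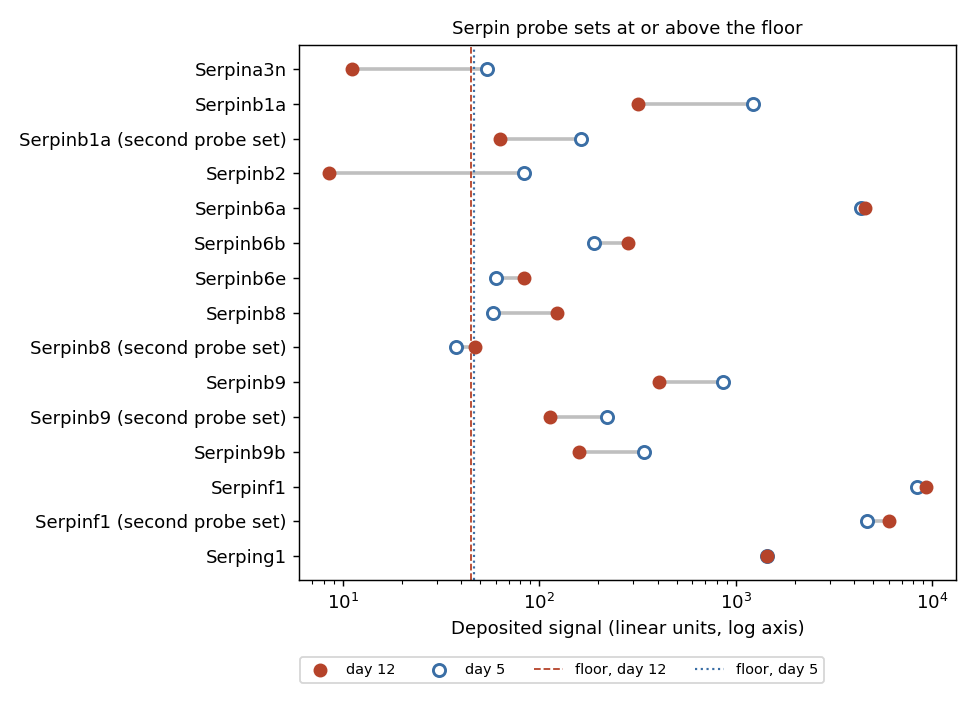
Deposited signal at day 12 (filled) and day 5 (open) of the 15 serpin probe sets that reached the floor on at least 1 array, on a log axis, with both floors as vertical lines. Both probe sets of Serpinb1a and of Serpinb9 lie further left at day 12, as does that of Serpinb9b, and the probe sets of Serpinf1, Serping1 and Serpinb6a differ little between the days.

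Serpinb1a (Entrez 66222) encodes a cytosolic inhibitor of neutrophil elastase, cathepsin G and proteinase 3. Its signal was 319 at day 12, against 1223 at day 5, so it was 3.83-fold lower (log2 ratio -1.94) and ranked 9 from the lowest of 10479 measured genes. A second probe set, of a type that can match related sequences, gave 63.3 at day 12 and 163 at day 5 (2.58-fold lower). Both probe sets were thus past 2-fold in the same direction, although their log2 ratios differed by 0.57. Across the 4446 genes for which at least 2 probe sets were measured, the gap between the log2 ratios of the brightest pair had a median of 0.17 and a 90th percentile of 0.52. That difference covers probe error and not differences between cultures.

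Serpinb9 (Entrez 20723) encodes the cytosolic inhibitor of granzyme B, a death-inducing protease of killer lymphocytes. Its signal was 405 at day 12, against 863 at day 5, which is 2.13-fold lower. The second probe set gave 114 at day 12 and 222 at day 5, a 1.95-fold difference just inside the threshold. The log2 ratios of the pair, -1.09 and -0.96, differed by 0.13. Serpinb9b (Entrez 20706), a mouse paralog of Serpinb9, had a signal of 160 at day 12, against 340 at day 5. It was also 2.13-fold lower, with a log2 ratio of -1.09 that passed 2-fold under 6 of 8 alternatives. After loess it was -0.99, so its place past 2-fold rests on the processing. With the 75th percentile floor its day 12 signal lay below the floor, and the value of -0.95 is a bound. Short probes can cross-hybridise between paralogs, and how far the Serpinb9 and Serpinb9b probe sets share signal was not tested.

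Serpinb8 (Entrez 20725), whose product inhibits the proprotein convertase furin, was the only member at least 2-fold higher. Its signal was 123 at day 12, against 57.9 at day 5, a 2.13-fold difference (log2 ratio 1.09). The second probe set gave 47.0 at day 12 and 37.5 at day 5, below the floor at day 5, for a bound of at least 1.01-fold higher. The size of the difference therefore rests on 1 probe set. With the median of the probe sets the log2 ratio was 0.71, and with 16 added to each signal it was 0.91.

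**Figure D3:**
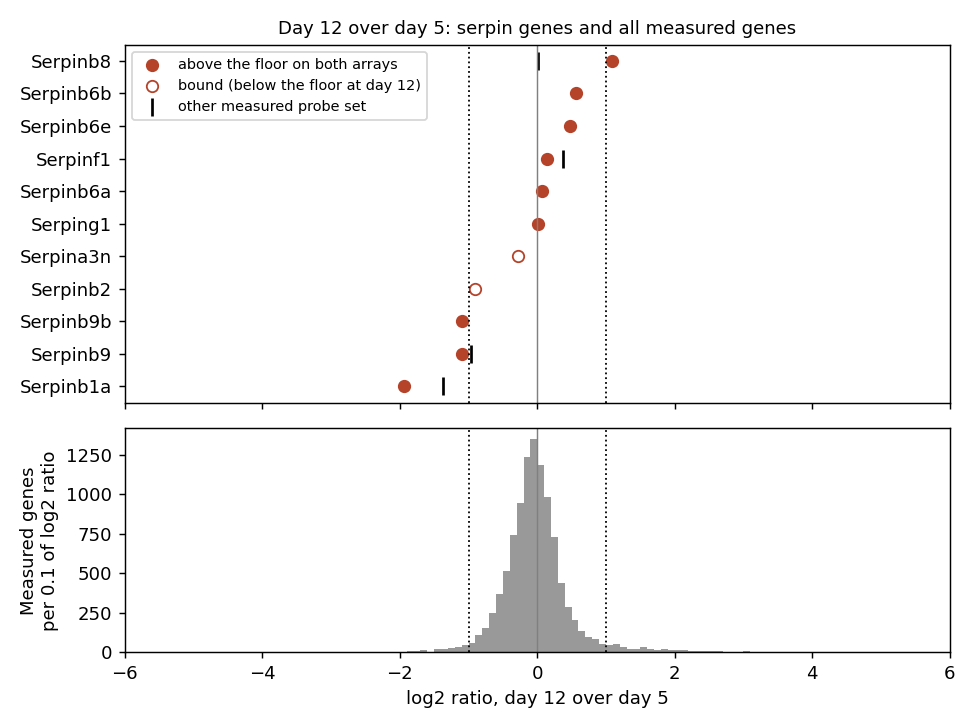
Upper panel, log2 ratio of day 12 over day 5 for the 11 measured serpin genes, as filled points for the brightest probe set, open points for bounds, and ticks for another measured probe set, values below the floor being raised to it. Lower panel, the number of measured genes per 0.1 of log2 ratio. Dotted lines mark 2-fold. Serpinb1a, Serpinb9 and Serpinb9b lie left of the lower line and Serpinb8 lies right of the upper one.

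Serpinb6a, Serpinb6b and Serpinb6e, mouse paralogs related to the cathepsin G inhibitor SERPINB6 of humans, stayed within 2-fold. Serpinb6a gave signals of 4525 at day 12 and 4333 at day 5 (log2 ratio 0.06, and -0.03 under quantile normalisation and -0.01 after loess). Serpinb6b had 282 at day 12 and 191 at day 5, a log2 ratio of 0.56 that lay above 0 under all 8 alternatives run for it. Serpinb6e had 83.9 at day 12 and 60.3 at day 5 (log2 ratio 0.48). Its probe set is of a type that can match related sequences, so its assignment among the paralogs is uncertain, and that of Serpinb6a is of a type that matches several transcripts of 1 gene. Serpinb2 (plasminogen activator inhibitor type 2), which blocks urokinase, had a signal of 8.53 at day 12, below the floor, against 83.7 at day 5. It was at least 1.87-fold lower, a bound that stops short of 2-fold.

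On chromosome 13 the 11 clade b genes with a named probe set included 6 measured ones, against 57.6% of all named genes. Of these, 3 were at least 2-fold lower and none at least 2-fold higher, against 1.73% and 3.56% of all measured genes. On chromosome 1, 2 of 7 clade b genes were measured, Serpinb8 and Serpinb2. In the gene order of the GRCm38.p6 table, Serpinb6b lies directly before Serpinb9 and Serpinb9b and had a ratio above 0, while both of those were below it. Serpinb1a is the first serpin of the 17 in that cluster and Serpinb6a the last. Serpinb1b, Serpinb9c, Serpinb9d, Serpinb9g and Serpinb6c, interspersed among them, lay below the floor on both arrays. The other clade b genes below the floor were Serpinb3a, Serpinb5 (maspin), Serpinb7, Serpinb11 and Serpinb12, all on chromosome 1. None of the 15 clade b probe sets below the floor exceeded 13.8 on either array.

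**Figure D4:**
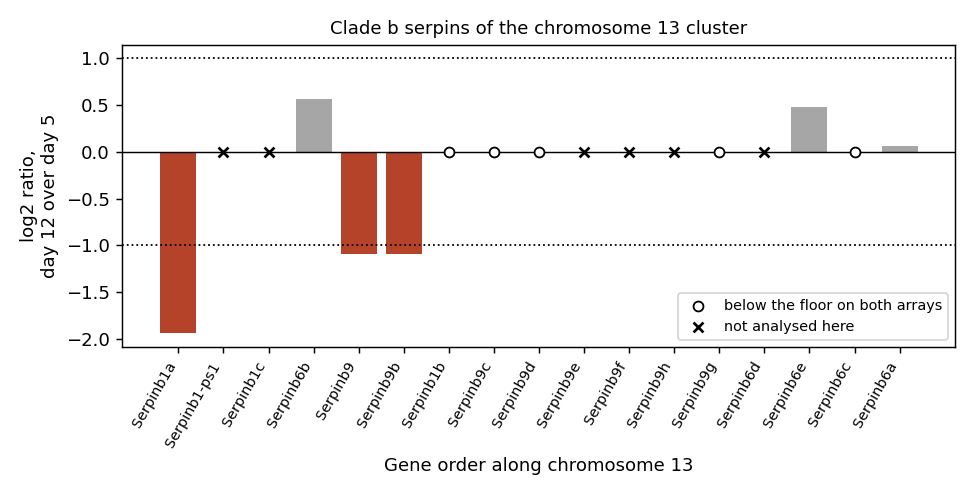
Log2 ratio of day 12 over day 5 for the serpin genes of chromosome 13 in their order along the chromosome, with dotted lines at 2-fold, open circles for genes below the floor on both arrays and crosses for genes not analysed here. Serpinb1a, Serpinb9 and Serpinb9b reach below the lower line, and Serpinb6b between them stands at 0.56.

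Of the secreted serpins analysed, Serpinf1 and Serping1 were measured on both arrays, and both stayed within 2-fold. In its brightest probe set, Serpinf1 (Entrez 20317) gave 9244 at day 12 and 8398 at day 5, and in the other 6048 at day 12 and 4645 at day 5. The log2 ratios were 0.14 and 0.38, and that of the brightest was -0.01 under quantile normalisation and 0.003 after loess, so no direction can be given for it. Very bright signals such as these may be compressed on arrays. Serping1 (Entrez 12258), the C1 inhibitor that blocks the proteases which start complement, gave signals of 1439 at day 12 and 1434 at day 5, a log2 ratio of 0.005 that was -0.02 under quantile normalisation. Serpina3n, a secreted inhibitor that is related to human α1-antichymotrypsin, was the only measured member of clade a. It had a signal of 11.1 at day 12, below the floor, against 54.3 at day 5, just above it, and was at least 1.21-fold lower.

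Several serpins that circulate in plasma lay below the floor on both arrays, among them Serpina1b and Serpina1c (forms of α1-antitrypsin), Serpina6 and Serpina7, which carry corticosteroids and thyroid hormone and inhibit no protease, Serpina10, which inhibits clotting factor Xa, Serpinc1 (antithrombin) and Serpinf2 (α2-antiplasmin). Serpinc1 gave 12.5 at day 12 and 6.61 at day 5, and Serpinf2 had 1.85 at day 12 and 13.6 at day 5. Serpina1f, Serpina3a, Serpina3i, Serpina5 (protein C inhibitor), Serpina9, Serpina11, Serpina12 (vaspin) and the pseudogene Serpina4-ps1 completed clade a. The 17 clade a probe sets below the floor ranged between 0.414 and 20.1 at day 12 and between 0.185 and 12.3 at day 5. Serpind1 (heparin cofactor II), with 3.54 at day 12 and 35.8 at day 5, was below the floor on both arrays. Serpini1 (neuroserpin), an inhibitor of tissue plasminogen activator, had 17.8 at day 12 and 30.6 at day 5 in its brightest probe set, and Serpini2 had 4.25 at day 12 and 1.11 at day 5. None of these values was read as a difference.

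Proteases and their partners were listed by group, and which of them serpins act on here was not tested. None of 10 leukocyte granule serine proteases was measured, which includes the elastase, cathepsin G, proteinase 3 and granzyme genes whose products Serpinb1a and Serpinb9 block, and Gzmb gave 11.5 at day 12 and 6.68 at day 5. All 5 lysosomal cysteine cathepsins were measured, and Ctss (cathepsin S) alone was at least 2-fold higher, with 1350 at day 12 and 458 at day 5 (2.94-fold). The other 4, Ctsk, Ctsb, Ctsl and Ctsh, had log2 ratios between 0.36 and -0.08 in their brightest probe sets. Further measured probe sets of Ctsb gave 0.78, 0.55 and 0.38. Furin, the target of Serpinb8, gave 289 at day 12 and 308 at day 5 (log2 ratio -0.09).

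Of 9 measured genes of plasminogen activation and serpin clearance, 1 passed 2-fold, in the upward direction. That gene was Vldlr, an endocytic receptor that takes up complexes of serpins with plasminogen activators, with 3250 at day 12 and 319 at day 5 (10.2-fold, log2 ratio 3.35, and above 0 in all 6 of its probe sets, of which the lowest gave a bound of at least 0.99). The tissue activator gene Plat had 356 at day 12 and 522 at day 5, the urokinase gene Plau 106 at day 12 and 79.3 at day 5, and its receptor gene Plaur 511 at day 12 and 384 at day 5. These 3 had log2 ratios of -0.55, 0.42 and 0.41. The 3 measured proteases that Serping1 blocks were all below their day 5 signal, at log2 ratios of -0.88 for Masp1, -0.77 for C1s1 and -0.41 for C1ra, and none passed 2-fold.

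Of 4 measured coagulation genes none passed 2-fold. Procr, the protein C receptor, came closest with 76.5 at day 12 and 152 at day 5 (log2 ratio -0.99). F3 (tissue factor), Thbd (thrombomodulin) and F2r (a thrombin receptor) had log2 ratios of 0.31, 0.25 and -0.21. Another measured probe set of F2r gave -0.51. In the list of secreted or membrane serine proteases, 6 genes were measured, and only Prss35 passed 2-fold. It was 2.86-fold higher, with 1523 at day 12 and 533 at day 5. Prss12 and Prss23 had log2 ratios of 0.71 and -0.46, and Htra3 of 0.17, in their brightest probe sets. Further measured probe sets gave 0.70 for Htra3, and -0.57 and -0.74 for Prss23. Protease activity was not tested. Of 7 measured inhibitors of other families none passed 2-fold. A2m, below the floor at day 12, had a bound of -0.84 and Tfpi2 a log2 ratio of -0.79, against 0.51 for Reck and 0.36 for Slpi.

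**Figure D5:**
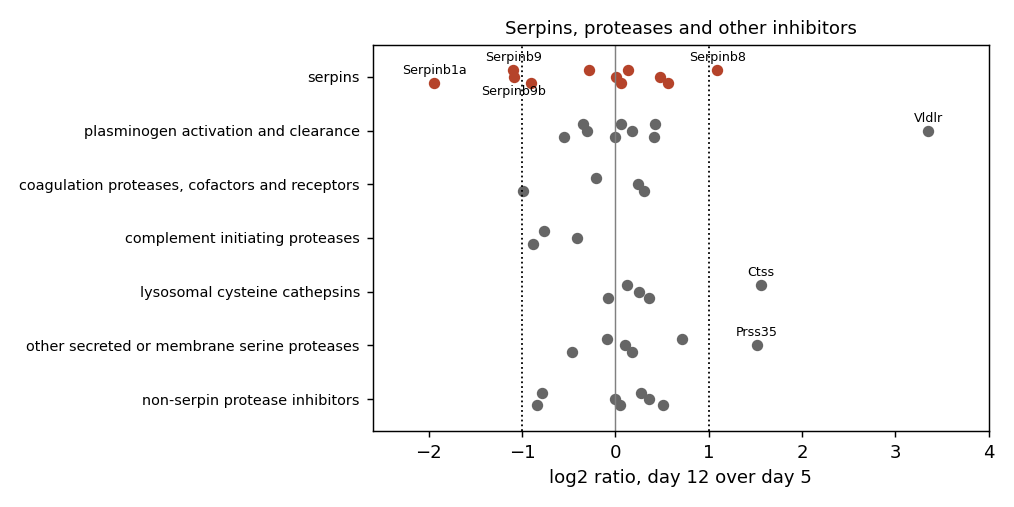
Log2 ratio of day 12 over day 5 for measured serpins, groups of proteases and their partners (receptors among them) with measured members, and inhibitors of other families. Each gene is 1 point, bounds are plotted at their value and dotted lines mark 2-fold. Of the genes past 2-fold, the 3 lower ones are serpins, and Vldlr, Ctss and Prss35 are higher beside Serpinb8.

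Markers of other cells moved between the arrays, and their part in the serpin differences was not tested. All 7 measured of 8 myeloid markers were at least 2-fold higher at day 12 in their brightest probe sets. Their summed signals were 10495 at day 12 and 4296 at day 5. A further Csf1r probe set, with 182 at day 12 and 113 at day 5, had a log2 ratio of 0.69, under 2-fold. Itgam, which encodes CD11b, had 35.4 at day 12 and 14.6 at day 5, below the floor on both arrays. Of 8 chondrocyte markers, all measured, 5 were at least 2-fold lower, and their sum was 12297 at day 12 and 30334 at day 5. The adipocyte markers Fabp4 and Adipoq had log2 ratios of -0.83 and -0.75, where that of Adipoq is a bound, and Lpl was 2.11-fold higher. The sum of 4 was 1668 at day 12 and 977 at day 5, most of it from Lpl alone, with 1560 at day 12 and 739 at day 5. None of 7 hepatocyte and none of 5 endothelial markers was measured, with sums of 43.4 and 58.7 at day 12 and of 58.9 and 59.3 at day 5. The 6 osteoblast markers with a probe set were measured, 4 of them at least 2-fold higher. In bulk RNA a smaller number of cells of a type and less RNA per cell cannot be told apart. Signal ratios of 3′ over 5′ control probe sets were 1.22 at day 12 and 1.25 at day 5 for the Actb set, while those of Gapdh were 0.799 at day 12 and 0.736 at day 5.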

How the data were processed

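The authors deposited 1 table of signal intensity, on a linear scale, for biotin-labelled cRNA hybridised to 1 array per day, made with GCOS 1.4 and MAS5, per the submitters' processing notes, which add no settings. The mean after trimming 2% at each end was 200.0 on both arrays, so the 2 arrays share a scaling target, and a change in total RNA cannot be seen. No detection calls were used, and the number of arrays limits the precision. The genome build behind the probes is not given in the sources used here.

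Gene names came from the annotation of the array platform, whose symbols were updated through the Entrez number in a GRCm38.p6 table for 34741 of 34945 probe sets with 1 symbol. A gene was represented by the brightest of its probe sets (mean log2 signal). Before taking ratios, values below the floor (60th percentile) were set to the floor, which makes a fold with 1 value below the floor a bound ("at least"), and a gene was counted where the ratio was at least 2-fold. No test was possible. The members and gene lists were chosen with earlier results of these data known. All measured members were named, and of each protease or inhibitor list the genes past 2-fold and up to 4 with the largest ratio; Gzmb, Furin, Itgam, Fabp4, Adipoq, Lpl and some further list members were named after their values were seen. The counting was tested on simulated data whose differences lay in bright genes. That check of the code does not bear on serpins with low signals or ratios close to 2-fold. Promoters came from RefSeq: 33 of 39 serpin genes were in the table. Alternatives were median centring, quantile normalisation, loess, a 50th or a 75th percentile floor, a pseudocount of 16, the median of probe sets, removal of probe sets that match several transcripts or sequences, counting probe sets singly, and thresholds of 1.5-fold and 3-fold. Python 3.11.15, numpy 2.4.6, pandas 2.3.3 and statsmodels 0.14.6 were used.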

Additional observations from a re-analysis of the deposited data

How the results depend on the processing

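Serpinb1a and Serpinb9 were at least 2-fold lower under all 8 alternatives run for single genes, with log2 ratios between -1.94 and -1.65 and between -1.09 and -1.03. With the 50th percentile floor Serpina12, Serpind1 and Serpini1 were measured too, 5 serpin genes were at least 2-fold lower (2.44% of all measured genes) and the median log2 ratio of measured serpins was -0.32. With the pseudocount 5 were lower (1.68% of all) and 0 higher (3.86% of all). Serpinb2 then had a log2 ratio of -2.02 and Serpina3n of -1.37. With the 75th percentile floor 7 serpin genes were measured. Of these, 0 were at least 2-fold higher, against 3.03% of all measured genes, since Serpinb8 was no longer measured. With the median of probe sets 0 were higher, against 3.51% of all. Without probe sets that match several transcripts or sequences the median was -0.28, because the probe sets of Serpinb6a and Serpinb6e were left out. At 3-fold 0 were higher and 1 lower. After loess 2 were lower, against 1.35% of all. The other counts stayed within 1.5 times of the first. No paired analysis was possible because there was 1 array per day. Serpins near the floor cannot be ordered, and a bound gives only a least difference, whose full size is not known.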

Other observations

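The array also carried 3 probe sets that match several serpin genes and were therefore no members. Their signals were 2.49 at day 12 and 3.44 at day 5 for the one shared by Serpinb9e, Serpinb9f, Serpinb9g and Serpinb9h, 3.94 at day 12 and 0.0762 at day 5 for Serpina1a with Serpina1d, and 2.63 at day 12 and 0.390 at day 5 for Serpina1b, Serpina1c and Serpina1e, all below the floor. Agt (angiotensinogen), a hormone precursor of the serpin fold whose symbol does not start with Serpin, had 32.8 at day 12 and 17.8 at day 5, also below the floor on both arrays.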
